A study of Mus musculus with 8 samples.

Results

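The nuclear-encoded genes of the mitochondrial respiratory chain and the ATP synthase were followed across the cells of B16F10 tumours. Members were taken by symbol from the gene list of the deposited tables: the *Ndufa*, *Ndufb*, *Ndufc*, *Ndufs* and *Ndufv* genes with a number and *Ndufab1*, *Sdha* to *Sdhd*, all *Uqcr* genes and *Cyc1*, the *Cox4* to *Cox8* genes, and all *Atp5* genes, without pseudogenes. The rule found 85 entries with 84 symbols among 31053 genes. Of these, 36 belong to complex I, 4 to complex II, 9 to complex III, 19 to complex IV (with *Ndufa4* and the assembly protein gene *Cox7a2l*) and 16 to complex V, and *Atp5s*, a coupling factor, stands apart. *Atp5o* is listed with 2 entries, of which the longer one held 2 UMIs and the shorter one 121364; values for *Atp5o* are those of the shorter entry. The members lie on 19 chromosomes of GRCm38.

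B16F10 is a mouse melanoma cell line, and the study grew it under the skin of mice with or without *Atf4*, a transcription factor of the integrated stress response. The 8 tumours analysed were large (300 mm3) and came from mice of 12 weeks, 4 of them *Atf4*wt/wt and 4 *Atf4*D/D. Both groups carried Rosa26::CreERT2, a Cre recombinase driven in all tissues, and both received tamoxifen, which in *Atf4*D/D mice excised the floxed *Atf4* alleles from host cells, while the injected tumour cells kept theirs. Each tumour gave 1 droplet-based library, in which a unique molecular identifier (UMI) marks each captured transcript, and the *Atf4*wt/wt hosts were 2 males and 2 females and the *Atf4*D/D hosts 3 males and 1 female.

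The respiratory chain passes electrons from NADH through complex I, or from succinate through complex II, to complex III, cytochrome c and complex IV, which reduces oxygen; the proton gradient built on the way drives complex V, the ATP synthase. Most subunits are encoded in the nucleus and a few core subunits of complexes I, III, IV and V in mitochondrial DNA. Several complex IV subunits exist as isoforms that differ between tissues or oxygen levels, such as *Cox4i1* and *Cox4i2*, *Cox6a1* and *Cox6a2*, or *Cox7a1* and *Cox7a2*.

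Promoters of such genes often carry sites for nuclear respiratory factor 1 (NRF1), ETS factors such as GABP, and YY1. Promoter windows from 250 bases before to 50 bases after the start, taken from RefSeq (GRCm38.p6), were found for 67 of the 84 symbols, with 72 windows. Both strands were searched for the letters GCGCATG (NRF1), CCGGAAG (ETS), AAGATGGC (YY1), AAGGTCA (estrogen-related receptors, ERR) and ACGTG (hypoxia-inducible factor, HIF). A GCGCATG match was present in 18.1% of the member windows and in 3.91% of all 32851 windows. CCGGAAG matched 22.2% against 8.86%, AAGATGGC 12.5% against 2.75%, AAGGTCA 11.1% against 4.72% and ACGTG 23.6% against 19.6%. These matches are descriptions of letters, not of binding, and windows of one gene can overlap. The promoters of 4 members on which the results turn are shown 5′ to 3′ on the strand of the gene, with matches to the NRF1, ETS, YY1 and HIF letters on either strand in capitals. *Sdhb* (chr4:140961021-140961320, plus strand) and *Ndufa4* (chr6:11907401-11907700, minus strand) were among the members lowest in host cells, *Cox7a1* (chr7:30183921-30184220, plus strand) was among the few higher there, and *Cox6a1* (chr5:115348909-115349208, minus strand) was higher in the stress state.
Sdhb: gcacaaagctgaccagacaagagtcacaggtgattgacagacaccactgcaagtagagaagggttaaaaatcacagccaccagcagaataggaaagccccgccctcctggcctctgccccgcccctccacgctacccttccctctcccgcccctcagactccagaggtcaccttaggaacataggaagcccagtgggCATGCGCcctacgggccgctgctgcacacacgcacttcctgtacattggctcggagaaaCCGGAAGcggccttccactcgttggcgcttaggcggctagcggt
Ndufa4: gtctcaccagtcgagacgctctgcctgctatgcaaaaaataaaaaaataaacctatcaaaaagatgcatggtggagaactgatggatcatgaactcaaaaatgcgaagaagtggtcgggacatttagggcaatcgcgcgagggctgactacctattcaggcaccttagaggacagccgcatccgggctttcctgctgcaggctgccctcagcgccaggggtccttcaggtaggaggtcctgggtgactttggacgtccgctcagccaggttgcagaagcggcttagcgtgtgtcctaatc
Cox7a1: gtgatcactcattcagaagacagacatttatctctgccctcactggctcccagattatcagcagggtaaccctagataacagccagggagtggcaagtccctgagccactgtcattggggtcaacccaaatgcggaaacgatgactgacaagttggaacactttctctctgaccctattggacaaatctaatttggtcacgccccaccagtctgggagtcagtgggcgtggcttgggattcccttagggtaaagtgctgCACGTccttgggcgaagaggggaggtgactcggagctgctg
Cox6a1: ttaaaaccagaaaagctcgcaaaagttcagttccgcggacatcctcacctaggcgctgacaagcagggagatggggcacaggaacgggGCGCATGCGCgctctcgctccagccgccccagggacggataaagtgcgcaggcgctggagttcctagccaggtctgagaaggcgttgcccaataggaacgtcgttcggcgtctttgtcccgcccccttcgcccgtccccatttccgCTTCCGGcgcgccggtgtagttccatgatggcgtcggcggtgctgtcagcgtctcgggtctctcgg
The *Sdhb* window held 1 NRF1 and 1 ETS match, the *Cox6a1* window 2 overlapping NRF1 matches and 1 ETS match, the *Cox7a1* window 1 HIF match, and the *Ndufa4* window none of these letters.

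The tables held 41925 barcodes, and 28411 were kept after the study's limits on genes per cell and on mitochondrial counts, with about 37283600 to 74942100 UMIs per tumour before filtering. Pairs of libraries shared 2 to 14 barcodes. Cells were clustered with the members left out, and the clusters gave 23710 melanoma-like, 728 CAF-like (cancer-associated fibroblast), 898 immune-like and 37 endothelial-like cells. CAF-like cells numbered 10 in *Atf4*D/D replicate 3 and 51 to 240 in the other tumours. *Atf4* itself lay at 278, 299, 323 and 290 counts per 1000000 UMIs (CPM) of the summed CAF-like cells of the *Atf4*wt/wt replicates 1 to 4 and at 151, 104, 171 and 90.2 in those of the *Atf4*D/D replicates, and at 262 to 442 in melanoma-like cells of all tumours. Transcripts of 5 melanoma marker genes (*Dct*, *Pmel*, *Mlana*, *Tyrp1* and *Tyr*) made up 1.22 to 1.52% of UMIs in melanoma-like cells, 0.0735 to 0.436% in CAF-like cells and 0.0953 to 0.578% in immune-like cells. Some comparisons of host with melanoma-like cells are therefore also given without cells carrying melanoma transcripts. These were the 135 CAF-like and 376 immune-like cells in which the share of these transcripts reached 10% of the median share in melanoma-like cells of the same tumour. Few such transcripts reach this limit in cells of low depth, so the choice also depends on depth. Without these cells, 7 tumours kept at least 10 CAF-like cells. The counts of members called in CAF-like or immune-like against melanoma-like cells are not given in this setting.

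Respiratory chain transcripts took a larger share of the UMIs in melanoma-like cells than in host cells of every tumour. Over the 8 tumours, the members made up 3.79 to 4.04% of UMIs in melanoma-like cells (median 3.89%), 2.24 to 2.86% in immune-like cells (median 2.52%) and 1.91 to 2.55% in CAF-like cells (median 2.18%). The ranges of melanoma-like and host cells did not overlap, while those of immune-like and CAF-like cells did. Without the cells carrying melanoma transcripts, the medians were 2.42% in immune-like cells of 8 tumours and 1.84% in CAF-like cells of 7 tumours. The mitochondrially encoded transcripts, which the rule does not cover, ranged from 4.51 to 5.72% in melanoma-like, 3.59 to 4.87% in immune-like and 2.87 to 3.93% in CAF-like cells. By host genotype, the share of the members was 3.87 ± 0.0462% (SD, n = 4) in *Atf4*wt/wt and 3.92 ± 0.104% in *Atf4*D/D melanoma-like cells, 2.27 ± 0.274% and 2.11 ± 0.152% in CAF-like cells, and 2.68 ± 0.227% and 2.38 ± 0.20% in immune-like cells. In each class the 2 groups overlapped.

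**Figure D1:**
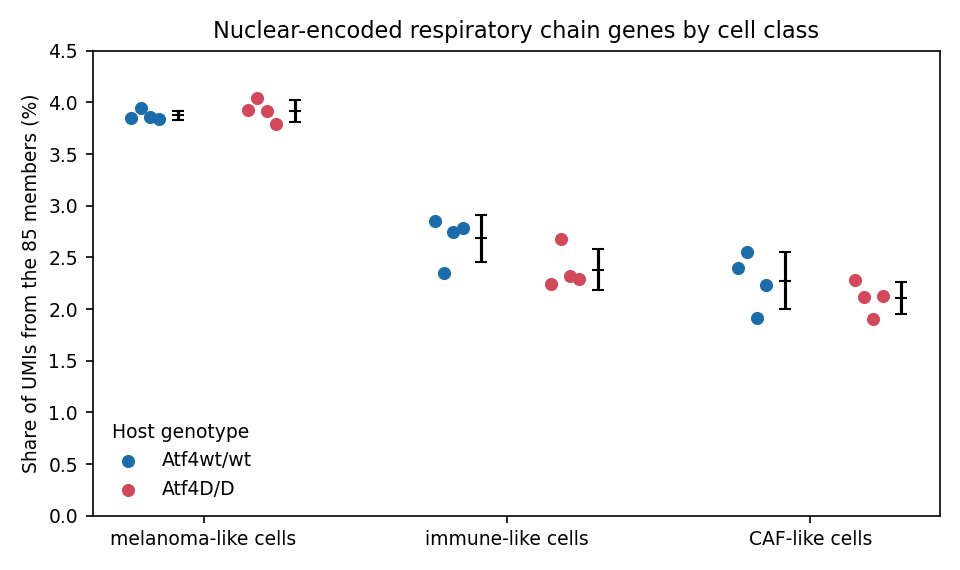
Share of all UMIs that came from the 85 members (y axis, %) in melanoma-like, immune-like and CAF-like cells (x axis), with 1 point per tumour, coloured by host genotype, and bars giving the mean and SD of 4 tumours. The melanoma-like points lie between 3.79 and 4.04%, above all points of both host classes.

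To ask which members differ between fibroblasts and tumour cells, UMI counts were summed per tumour and class and CAF-like sums were compared with melanoma-like sums of the same tumours (edgeR quasi-likelihood test with the tumour as a block, Benjamini-Hochberg adjustment over all genes, threshold 0.05). Of 80 members tested, 71 were lower in CAF-like cells and 2 were higher, against 28.4% and 25.2% of all 11770 genes tested. The median log2 fold change was -0.63 over the members and -0.12 over all genes. For 57 of the 80, the levels of the 8 tumours, in CPM with library sizes scaled by TMM, did not overlap between the classes, against 24.7% of all genes tested.

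Complex I was lower almost throughout, with 34 of 36 subunits called and a median of -0.68. *Ndufa5*, an accessory subunit of the peripheral arm, fell most: it ranged from 67.3 to 341 TMM-scaled CPM in CAF-like cells (median 250, 8 tumours) and from 450 to 587 in melanoma-like cells (median 537), a log2 fold change of -1.12 ± 0.12 (SE, edgeR adjusted p = 4.16e-10). *Ndufb9* of the membrane arm followed at -1.10 ± 0.11. The catalytic core subunit *Ndufs1* changed by -0.87. *Ndufv1*, which carries the NADH-oxidizing flavin, and *Ndufa2* did not pass the test, at -0.23 (adjusted p = 0.0886) and -0.09 (adjusted p = 0.464).

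Complex II was the least uniform. Its iron-sulfur subunit *Sdhb* lay at 169, 237, 125 and 194 TMM-scaled CPM in CAF-like cells of the *Atf4*wt/wt replicates 1 to 4 and at 221, 214, 67.3 and 212 in those of the *Atf4*D/D replicates. In melanoma-like cells, *Sdhb* ranged from 453 to 572 (median 525), so that it was lower in CAF-like cells of all 8 tumours, with a log2 fold change of -1.47 ± 0.12 (adjusted p = 1.09e-12) and of -2.00 without the cells carrying melanoma transcripts. The membrane anchor subunit *Sdhd* was lower by less, at -0.45 ± 0.11. The flavoprotein subunit *Sdha* and the anchor *Sdhc* gave -0.23 (adjusted p = 0.107) and -0.21 (adjusted p = 0.137), and their levels overlapped between the classes.

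All 9 complex III members were lower, with a median of -0.66. The cytochrome c1 gene *Cyc1* ranged from 114 to 227 TMM-scaled CPM in CAF-like cells and from 374 to 446 in melanoma-like cells (-1.18 ± 0.11). The small subunits *Uqcrq* and *Uqcr10* changed by -1.08 and -1.03, and the hinge protein gene *Uqcrh* by the least, -0.33 ± 0.11. In complex V, 14 of 15 members tested were lower, from *Atp5c1*, the gamma subunit of the rotor, at -0.94, to *Atp5o* at -0.42, with a median of -0.59. *Atp5k*, a small subunit of the membrane part, was not called (-0.23, adjusted p = 0.0688).

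Complex IV held both the strongest decrease and the only increases. *Ndufa4*, first described with complex I and now counted as a complex IV subunit, lay at 1584 to 1905 TMM-scaled CPM (median 1840) in melanoma-like cells. In CAF-like cells *Ndufa4* lay at 812, 506, 481 and 678 in the *Atf4*wt/wt replicates and at 840, 698, 168 and 733 in the *Atf4*D/D replicates. Its log2 fold change was -1.54 ± 0.13 (adjusted p = 2.66e-12), lower in 8 of 8 tumours. The CAF-like subcluster with melanoma markers held 1292 of the 2442 *Ndufa4* UMIs of CAF-like cells, and without the cells carrying melanoma transcripts the change was -2.11. *Cox5b* and *Cox5a*, which sit beside the catalytic core, changed by -1.20 ± 0.11 and -0.99 ± 0.11. The main isoform of subunit 4, *Cox4i1*, changed by -0.61 ± 0.10, while *Cox6a1* gave 0.22 ± 0.10 and was not called (adjusted p = 0.0597).

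**Figure D2:**
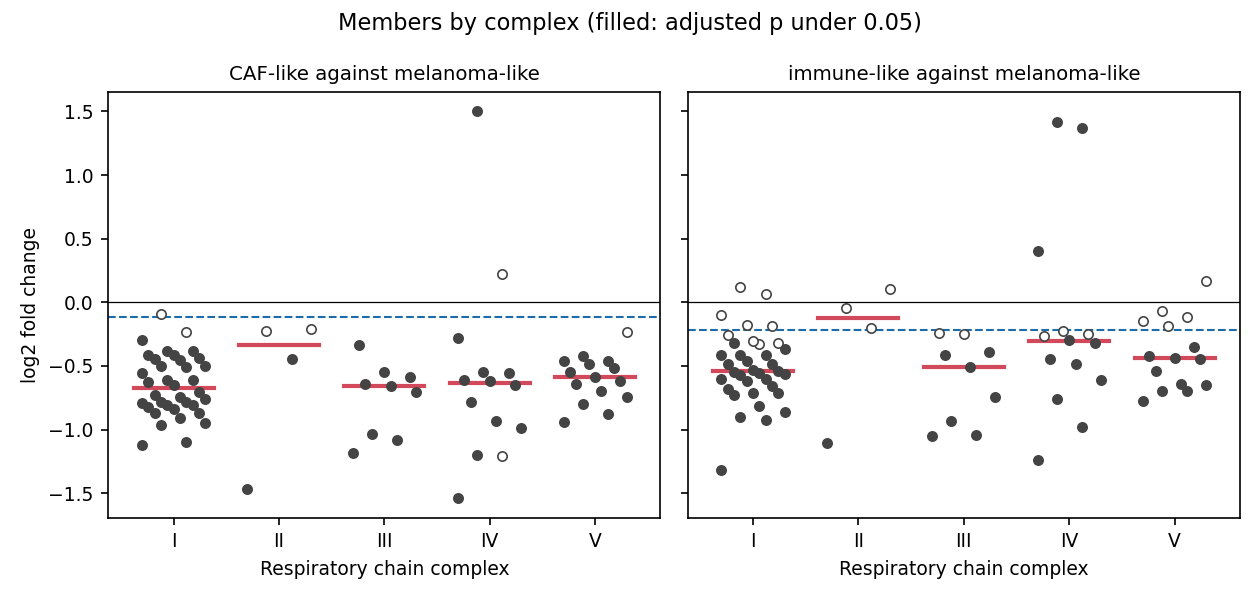
Log2 fold change (y axis) of each member tested, by complex (x axis), for CAF-like against melanoma-like cells on the left and immune-like against melanoma-like cells on the right. Filled points passed an adjusted p of 0.05, red bars mark the median of a complex and the dashed line the median of all genes (-0.12 and -0.22); *Cox4i2* (11.02) and *Atp5s* are not drawn. Nearly all points lie below the dashed line on the left, and *Cox7a1* at 1.5 stands above.

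*Cox4i2*, the isoform of subunit 4 known from lung, smooth muscle and pericytes, was nearly restricted to stromal cells. CAF-like cells held 220 *Cox4i2* UMIs, at 41.4, 158, 60.0 and 47.3 CPM in the *Atf4*wt/wt replicates 1 to 4 and 61.1, 20.3, 98.0 and 54.6 in the *Atf4*D/D replicates. Melanoma-like cells held 6 UMIs among 23710 cells, or 0.0233 CPM against 57.1 CPM pooled over CAF-like cells, a ratio of 2448 (95% Poisson interval 1107 to 6743, counting error only). A *Cox4i2* UMI was found in 16.5% of CAF-like cells (exact binomial 95% interval 13.9 to 19.4%, median 4581 UMIs per cell). In melanoma-like cells the share was 0.0253% at a median of 10305 UMIs, and in immune-like cells 0.445% at a median of 1327.5. The fitted log2 fold change of 11.02 ± 0.40 (edgeR adjusted p = 4.28e-23) rests on these 6 UMIs and on the count the fit adds to each sum. *Cox4i2* passed the expression filter only through the CAF-like sums, where it is high, so this p-value adds nothing to the counts.

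*Cox4i2* was unevenly spread among the stromal cells. It reached 408 CPM (Poisson interval 330 to 499) in the 89 perivascular CAF-like cells, named by the markers *Rgs5*, *Kcnj8*, *Abcc9*, *Myh11*, *Higd1b* and *Notch3* among their leading genes. It was at 112 (88.0 to 141) in a subcluster of 162 cells led by *Pgf*, *Egln3* and *Ndrg1*, and at 14.8 to 22.2 in the adventitial CAF-like cells, the cells with cell cycle genes and the cells with melanoma markers. The 37 endothelial-like cells held 17 *Cox4i2* UMIs in 5 cells, or 144 CPM (83.8 to 230). A UMI was found in 44.9% of the perivascular cells at a median of 2282 UMIs per cell and in 5.41% of the adventitial cells at a median of 4585, so that the deeper cells were those with fewer positives.

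*Ndufa4l2*, a paralogue of *Ndufa4* that is induced in hypoxia, falls outside the symbol rule. Its levels ran opposite to those of *Ndufa4* between CAF-like and melanoma-like cells. It was at 535 CPM in CAF-like cells and at 2.42 in melanoma-like cells, a ratio of 221 (202 to 242), while *Ndufa4* was at 634 and 1828. In the *Pgf*-led subcluster *Ndufa4l2* reached 1019 CPM and *Ndufa4* 241, and in the perivascular cells 867 and 275. In the adventitial cells *Ndufa4l2* was at 524 and *Ndufa4* at 460. In the CAF-like cells with melanoma markers *Ndufa4l2* was at 148 and *Ndufa4* at 1383. Whether reads were shared between these paralogues was not tested.

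**Figure D3:**
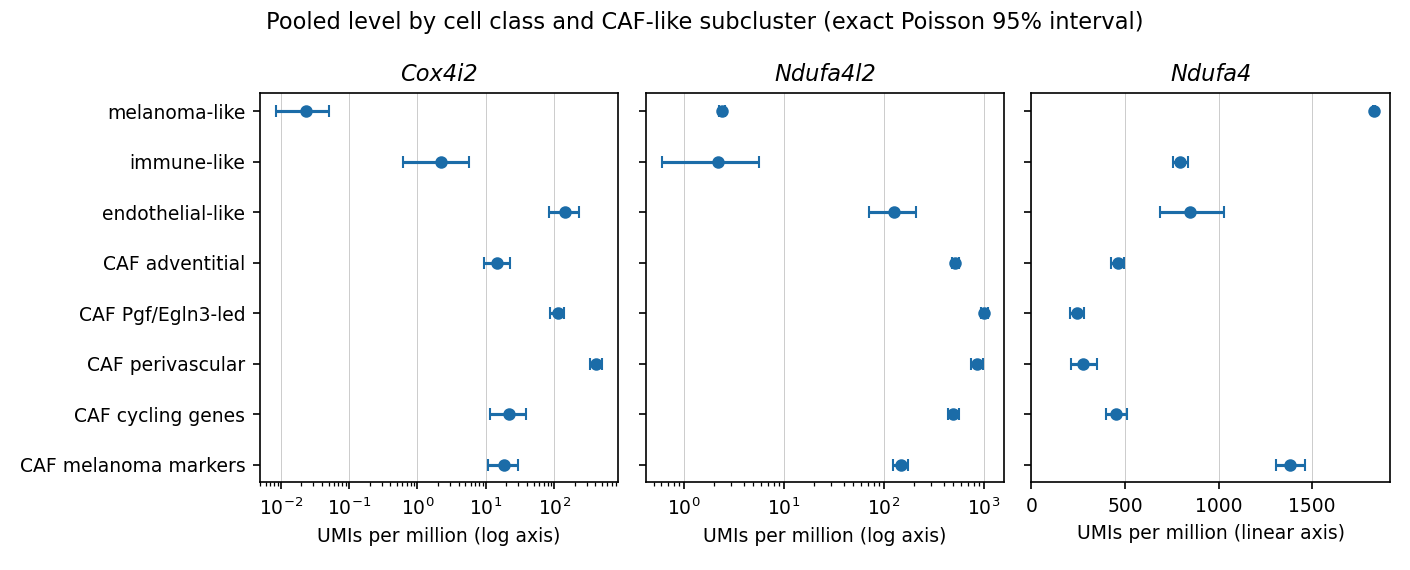
Pooled level (x axis, CPM; log axis for *Cox4i2* and *Ndufa4l2*, linear for *Ndufa4*) in the cell classes and CAF-like subclusters (y axis), with exact Poisson 95% intervals that cover counting error only. *Cox4i2* is highest in perivascular CAF-like cells at 408, *Ndufa4l2* is high in all CAF-like subclusters but the one with melanoma markers, and *Ndufa4* is highest in melanoma-like cells at 1828.

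*Cox7a1*, the heart and muscle isoform of subunit 7a, was the second member higher in CAF-like cells, at 3.56 to 16.8 TMM-scaled CPM against 2.19 to 4.88 (1.5 ± 0.34, adjusted p = 0.000339), higher in 6 of 8 tumours. Its counts were few: 20 of the 37 *Cox7a1* UMIs of CAF-like cells lay in the *Pgf*-led subcluster. The liver-type isoform *Cox7a2* went the other way (-0.93 ± 0.10). *Cox6a2*, the muscle isoform of subunit 6a, held 5 UMIs in CAF-like cells (-1.21, adjusted p = 0.11). The testis isoforms *Cox7b2* and *Cox8c* had 0 UMIs in all 4 classes, which allows up to 0.0117 CPM in melanoma-like and 0.779 in CAF-like cells, and *Cox8b* and *Cox6b2* held 13 and 7 UMIs in melanoma-like cells and 0 and 17 in CAF-like cells.

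Genes around the chain were more often lower than higher in this comparison. Of 47 assembly factors tested, 22 were lower and 2 higher (median -0.49), and of 13 mitochondrially encoded mRNAs 11 were lower and 0 higher (median -0.60). Cytochrome c (*Cycs*) was lower by 1.47 ± 0.12 on the log2 scale. Among 14 regulators of mitochondrial biogenesis tested, 5 were lower and 2 higher: *Ppargc1a*, a coactivator that drives mitochondrial gene expression, changed by -2.08 ± 0.16 and *Myc* by 0.82 ± 0.14. Of 21 genes of the TCA cycle and pyruvate dehydrogenase, 14 were lower and 4 higher, and of 18 glycolysis genes 13 were lower and 2 higher, with the glucose transporter gene *Slc2a1* at 1.57 ± 0.14.

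Immune-like cells also held most members at a lower level than melanoma-like cells. Of 79 tested, 54 were lower and 3 higher, against 25.8% and 19.8% of all 11616 genes, with a median of -0.46 against -0.22 over all genes. The levels did not overlap for 36 members, against 24.2% of all genes. This comparison and the one above share their melanoma-like sums. Without the cells carrying melanoma transcripts, the median was -0.64 over the members and -0.39 over all genes, both lower than with these cells. In the fit with every detected gene, the median over all genes, -0.56, was as low as that of the members, -0.54.

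*Ndufa5* was again the lowest complex I member (-1.32 ± 0.14, adjusted p = 2.15e-13), and *Ndufa4* (-1.24 ± 0.12), *Sdhb* (-1.10 ± 0.13), *Cyc1* (-1.05 ± 0.15) and *Uqcrq* (-1.05 ± 0.12) led the other complexes. Complex I had 27 of 36 members lower, complex III 7 of 9, complex IV 8 of 14 tested and complex V 10 of 15. In complex II, *Sdhb* was the single member called, since *Sdha*, *Sdhc* and *Sdhd* gave -0.05, 0.11 and -0.20. *Cox4i1* and *Cox5a*, both lower in CAF-like cells, were not called here (-0.23, adjusted p = 0.0708, and -0.25, adjusted p = 0.0736).

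The 3 members higher in immune-like cells were all complex IV isoforms. *Cox6a1* ranged from 179 to 379 TMM-scaled CPM against 182 to 261 (0.40 ± 0.13, adjusted p = 0.00915), higher in 6 of 8 tumours. *Cox7a1* held 16 UMIs (1.42 ± 0.47, adjusted p = 0.00972) and *Cox6a2* 17 UMIs (1.37 ± 0.48, adjusted p = 0.014). The *Cox6a2* call was lost without *Atf4*wt/wt replicate 1 (adjusted p = 0.297), without *Atf4*wt/wt replicate 3, without *Atf4*D/D replicate 1, at a mitochondrial limit of 5% and with DESeq2. The *Cox6a1* call was lost without *Atf4*wt/wt replicate 3 (adjusted p = 0.0591) and in the fit with every detected gene, and that of *Cox7a1* without *Atf4*D/D replicate 2 (adjusted p = 0.171). In an immune-like subcluster of 44 cells led by *Mzb1* and *Iglc3*, with *Siglech* and *Clec9a* also among its 10 leading genes, *Cox6a2* held 6 UMIs, or 80.7 CPM, against 0 to 11.4 in the other immune-like subclusters.

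The genes called in the lists around the chain were more often lower than higher in immune-like cells: 19 of 47 assembly factors were lower and 1 higher, 7 of 13 mitochondrially encoded mRNAs lower and 2 higher, 8 of 20 TCA cycle genes lower and 1 higher, and 14 of 18 glycolysis genes lower and 2 higher. *Ppargc1a* changed by -2.14 ± 0.21, *Cycs* by -1.22 ± 0.13 and *Higd1a*, a hypoxia-induced partner of complex IV, by -1.03 ± 0.13.

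Deletion of host *Atf4* was compared within each class, as the main contrast of the series. No member passed the test in melanoma-like cells (79 tested, 0.0319% of all genes called), in CAF-like cells (77 tested, 0.0431% called) or in immune-like cells (75 tested, 0.0306% called). At an unadjusted edgeR p under 0.05 there were 8, 0 and 6 members, against 11.3%, 6.68% and 10.6% of all genes tested, so that no class held more of them than the background. DESeq2 called 2, 0 and 0 members. The medians of the log2 fold change (*Atf4*D/D over *Atf4*wt/wt) were -0.03, -0.06 and -0.16, against -0.00, -0.01 and 0.01 over all genes. With sex as a covariate no member passed in any of the 3 classes. Without it, no gene of the assembly, carrier, biogenesis, TCA cycle, glycolysis or mitochondrially encoded lists passed in any of them.

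In melanoma-like cells, 2 complex IV members had the smallest p-values. *Cox7b*, a small subunit of the complex, lay at 524, 615, 712 and 676 TMM-scaled CPM in the *Atf4*wt/wt replicates and at 792, 803, 803 and 790 in the *Atf4*D/D replicates (0.33 ± 0.09, edgeR adjusted p = 0.226). *Cox6a1* lay at 185, 195, 229 and 215 and at 244, 266, 250 and 255 (0.30 ± 0.07, adjusted p = 0.215). In both, the groups did not overlap, as for 7 of the 79 members and 6.32% of all genes. In CAF-like cells this held for 1 of 77 members, *Ndufa7* (3.73% of all genes), and in immune-like cells for 5 of 75, *Ndufb9*, *Uqcrh*, *Ndufa11*, *Ndufa13* and *Atp5h* (6.24%). DESeq2 called these 2 (adjusted p = 0.0290 and 0.0211) among 77 higher and 39 lower genes in all. *Sdhd*, *Sdha* and *Sdhc* of complex II gave 0.25, 0.20 and 0.17 (adjusted p = 0.305, 0.362 and 0.353).

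In immune-like cells the 6 members with an unadjusted p under 0.05 were all lower in *Atf4*D/D hosts. Melanoma marker transcripts made up 0.113 to 0.578% of UMIs in the *Atf4*wt/wt sums and 0.0953 to 0.365% in the *Atf4*D/D sums. Without the cells carrying melanoma transcripts 2 members had such a p. That setting leaves out 376 of the 898 immune-like cells, and its share of all genes with such a p is not given. Whether melanoma transcripts account for the 6 members was not tested. *Ndufb9* lay at 558, 771, 519 and 483 TMM-scaled CPM in the *Atf4*wt/wt replicates and at 357, 388, 386 and 376 in the *Atf4*D/D replicates, without overlap (-0.59 ± 0.19, adjusted p = 0.349). The others were *Ndufb2*, *Ndufa3*, *Ndufa11* and *Ndufa13* of complex I and *Uqcrh* of complex III, at -0.63 to -0.43. In CAF-like cells *Cox4i2* gave -0.49 ± 0.42 (adjusted p = 0.926), and the ranges of the 2 groups, 20.3 to 98.0 CPM in *Atf4*D/D and 41.4 to 158 in *Atf4*wt/wt tumours, overlapped.

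The genotype difference was also compared between CAF-like and melanoma-like cells, and no member of 81 tested passed (0.392% of all genes called, 0 members with DESeq2). At an unadjusted p under 0.05 there were 2 members, against 5.79% of all genes. *Ndufa4l2* did, at -1.08 ± 0.23 (adjusted p = 0.00427). It lay at 449, 813, 667 and 684 CPM in CAF-like cells of the *Atf4*wt/wt replicates and at 444, 317, 294 and 570 in those of the *Atf4*D/D replicates. Within CAF-like cells the difference alone was -0.59 ± 0.23 (adjusted p = 0.679), and in melanoma-like cells, where *Ndufa4l2* was below 4 CPM in every tumour, it was 0.43 ± 0.29 (adjusted p = 0.603). DESeq2 gave an adjusted p of 0.0822 for the interaction.

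Melanoma-like cells fell into 10 clusters, and states were named from markers. Their members' share ran from a median of 3.45% in cluster 8, which carries G2/M and hypoxia genes, over 3.67% in the hypoxia state (3541 cells) and 3.74% in the stress state (3457 cells), to 4.22% in cluster 3 (3159 cells), led by *Kcnj13*, *Mgll* and *Coq8a*. Each state was compared with the remaining melanoma-like cells of the same tumour, so that the 3 comparisons share cells. States were drawn from other genes of the same cells, and p-values measure how well a difference repeats over the 8 tumours.

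In the hypoxia state, named by genes such as *Car9*, *Bnip3* and *Ndrg1*, 24 of 79 members were higher and 28 lower, near the 31.5% and 31.1% of all 11625 genes. The median was -0.02 against 0.00 over all genes. This balance depended on the setting: 22 were higher and 37 lower with clusters drawn at a finer resolution of 1.0 (34.5% and 30.8% of all genes), and 17 and 33 of 83 tested in the fit with every detected gene (16.3% and 20.3%, with medians of -0.06 over the members and -0.12 over all genes). The levels of 9 members did not overlap between the hypoxia state and the other cells, against 20.2% of all genes. Subunits of one complex moved in opposite directions. *Ndufv3*, a small accessory subunit of the flavin module of complex I, was at 536 to 704 TMM-scaled CPM (median 653) against 339 to 424 in the other cells (median 366), without overlap (0.77 ± 0.03, adjusted p = 2.72e-17). *Ndufa6* rose by 0.42 ± 0.03, while *Ndufs8*, a core iron-sulfur subunit, and *Ndufa5* fell by 0.42 ± 0.04 and 0.40 ± 0.03. In complex I, 7 were higher and 13 lower.

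Complex IV went mostly up in the hypoxia state, with 9 of 14 members higher and 3 lower. The assembly protein gene *Cox7a2l* rose from a median of 296 to 400 (0.45 ± 0.03), *Cox7b* by 0.29, *Cox7c* by 0.28, *Cox8a* by 0.26 and *Cox4i1* by 0.17. *Cox7a1*, at 5.21 against 3.52 CPM, rose by 0.78 ± 0.15 (adjusted p = 4.75e-05), a call lost at a mitochondrial limit of 5% (adjusted p = 0.0976). *Ndufa4* was at 1281 to 1535 TMM-scaled CPM (median 1394) against 1612 to 1914 (median 1881), without overlap (-0.39 ± 0.03), while its paralogue *Ndufa4l2* rose by 1.71 ± 0.15 from a low level. *Cox5a* fell by 0.16 ± 0.03.

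Complexes II and V held members that fell in the hypoxia state. *Sdhb* was at 336 to 429 TMM-scaled CPM against 463 to 573, without overlap (-0.49 ± 0.03, adjusted p = 1.05e-13), and *Sdha* gave -0.02 (adjusted p = 0.716). Of the 3 genes that encode the identical c-ring subunit of the ATP synthase, *Atp5g1* fell by 0.48 ± 0.03 and *Atp5g3* by 0.28 ± 0.03, while *Atp5g2* rose by 0.23 ± 0.03. In complex III, *Uqcrc1* and *Cyc1* fell by 0.33 and 0.30 and *Uqcrh* rose by 0.23. Of 47 assembly factors 10 were higher and 20 lower, and of 19 carrier and coenzyme Q genes 2 were higher and 11 lower, with *Cycs* at -0.27 ± 0.03. *Higd1a* rose by 1.55 ± 0.07. Of 18 glycolysis genes 17 were higher, with *Slc2a1* at 1.87 ± 0.07, and of 13 mitochondrially encoded mRNAs 7 were higher and 3 lower. This cluster was named by hypoxia genes, of which *Slc2a1*, *Pdk1* and *Higd1a* are also in these lists.

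**Figure D4:**
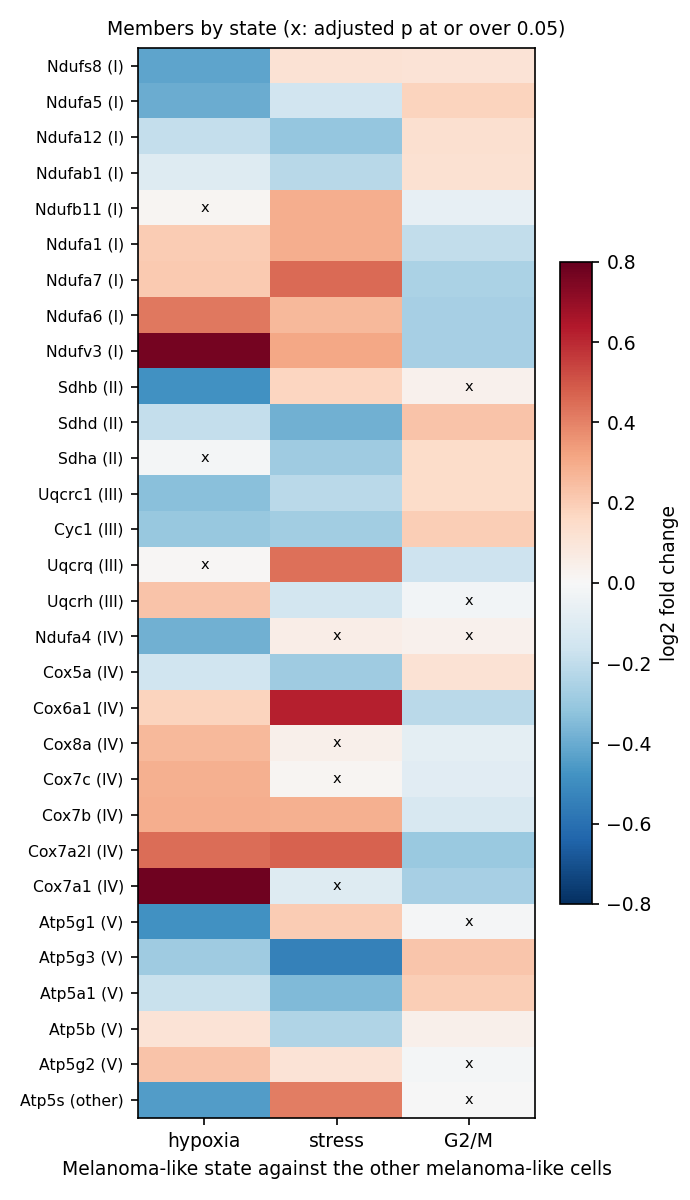
Log2 fold change (colour, from -0.8 in blue to 0.8 in red; larger values are drawn at the end of the scale) of 30 members (y axis, complex in brackets) in 3 melanoma-like states against the other melanoma-like cells of 8 tumours (x axis). A cross marks an adjusted p at or over 0.05. Members of one complex differ in sign within a state, as *Ndufs8* and *Ndufv3* in the hypoxia state. The 30 members are those with the largest changes called in the hypoxia or stress state, without *Cox6a2*. This choice by itself favours a paler G2/M column.

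In the stress state, named by *Fgf21* and *Nupr1*, targets of the integrated stress response, 28 members were higher and 29 lower, against 33.4% and 32.3% of all genes (medians -0.02 and 0.00). At resolution 1.0 the split was 37 higher and 21 lower (31.3% and 32.2% of all genes), with a median of 0.04, and in the fit with every detected gene 20 higher and 37 lower of 83 (17.3% and 20.9%), with a median of -0.07 against -0.09 over all genes. The levels of 11 members did not overlap, against 23.1% of all genes. Members of all 5 complexes fell. The c-ring gene *Atp5g3* was at 457 to 556 TMM-scaled CPM against 656 to 830, without overlap (-0.54 ± 0.03, adjusted p = 2.68e-14), and the alpha and beta subunits *Atp5a1* and *Atp5b* fell by 0.35 ± 0.03 and 0.24 ± 0.02. *Sdhd* and *Sdha* fell by 0.38 and 0.29, *Cyc1* by 0.28, *Cox5a* by 0.29, and in complex I the accessory subunits *Ndufa12* and *Ndufab1* by 0.31 and 0.22 and the core subunit *Ndufs1* by 0.21.

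Members of the 5 complexes also rose in the stress state. *Cox6a1* was at 270 to 383 TMM-scaled CPM (median 320) against 174 to 245 (median 209), without overlap (0.62 ± 0.04, adjusted p = 7.56e-14). *Cox7a2l* rose by 0.47 ± 0.03, *Ndufa7* by 0.45 ± 0.03, *Uqcrq* by 0.44 ± 0.03 and *Cox7b* by 0.28 ± 0.03. The iron-sulfur subunit *Sdhb* and the c-ring gene *Atp5g1*, which fell in the hypoxia state, rose by 0.17 and 0.21. The difference between these 2 states was not tested. Assembly factors were split, with 11 higher and 10 lower of 47, and the mitochondrial protease gene *Lonp1* rose by 0.71 ± 0.03. Of 20 TCA cycle genes 4 were higher and 10 lower, and the coactivator genes *Ppargc1b* and *Ppargc1a* fell by 0.67 ± 0.11 and 0.26 ± 0.03.

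*Cox6a2* had the largest change among the members in the stress state. It was at 8.56 to 21.8 CPM in this cluster (median 13.9, 463 UMIs) and at medians of 1.08 to 3.53 in the other 9 melanoma-like clusters. The log2 fold change was 2.71 ± 0.22 (adjusted p = 6.21e-11), higher in 8 of 8 tumours without overlap. The stress cluster held 463 of the 941 *Cox6a2* UMIs of melanoma-like cells. *Cox6a2* was lower in the hypoxia state (-1.07 ± 0.20) and in G2/M (-1.29 ± 0.18), whose comparison groups hold the stress cluster. The sign in the hypoxia state turned to 0.61 with clusters drawn at resolution 1.0. The median of *Cox6a1* was highest in the same cluster, at 313 CPM.

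**Figure D5:**
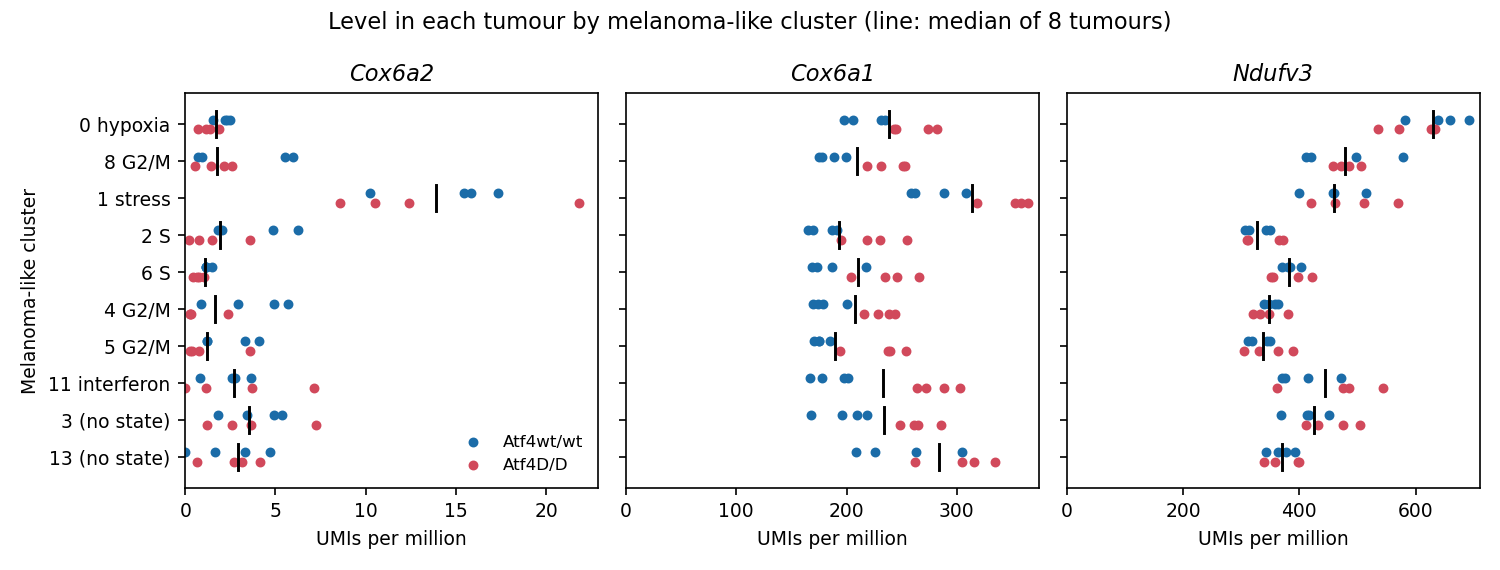
Level of *Cox6a2*, *Cox6a1* and *Ndufv3* (x axis, CPM) in each of 10 melanoma-like clusters (y axis), with 1 point per tumour, coloured by host genotype, and a line at the median of 8 tumours. *Cox6a2* (13.9) and *Cox6a1* (313) have their highest medians in the stress cluster and *Ndufv3* (630) in the hypoxia cluster.

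Changes in the summed G2/M cells (clusters 4, 5 and 8) were small. The clusters differed in the members' share, with medians of 4.01, 3.89 and 3.45%. Cluster 8, which also carries hypoxia genes, lay among the cells compared with the hypoxia state. Of 79 members, 30 were higher and 25 lower, against 29.9% and 30.2% of all genes, with a median of 0.01 against -0.01 over all genes. The levels did not overlap for 1 member, *Cox7a2l*, against 9.82% of all genes. Apart from *Cox6a2*, the changes ran from -0.29 for *Cox7a2l* to 0.23 for *Sdhd*. *Atp5g3* (0.22), *Atp5a1* (0.20), *Cyc1* (0.20) and *Ndufa5* (0.18) were higher, and *Ndufv3* and *Ndufa6* (both -0.27) and *Cox6a1* (-0.21) lower. The cells compared with them include the hypoxia and stress clusters. Each of these genes moved the opposite way in the hypoxia state, the stress state or both. How much of the G2/M differences comes from those clusters was not tested. Of the mitochondrially encoded mRNAs 8 of 13 were higher and 0 lower, of 18 glycolysis genes 2 were higher and 14 lower, and *Nrf1*, a transcription factor of nuclear-encoded respiratory genes, rose by 0.74 ± 0.04. With a mitochondrial limit of 5%, 13 members were higher and 28 lower. The share of all genes called in that setting is not given, so this shift cannot be assigned to the members.

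Within CAF-like cells, perivascular cells were compared with the rest in the 3 tumours that had at least 10 cells of each, *Atf4*D/D replicate 4 and *Atf4*wt/wt replicates 2 and 4, with 12 to 30 perivascular cells per tumour. Of 75 members tested, 3 were higher and 1 lower, against 7.08% and 8.29% of all 2076 genes, and the median was 0.17 against 0.01. The levels of 16 members did not overlap, against 33.3% of all genes. *Cox4i2* was at 641, 519 and 533 TMM-scaled CPM in perivascular cells and at 34.7, 76.6 and 4.47 in the other CAF-like cells of these tumours (4.07 ± 0.46, adjusted p = 0.000455). It kept an adjusted p under the threshold under all alternatives but the mitochondrial limit of 5% (0.0592). *Cox4i2* passed the expression filter only through the perivascular sums, where it is high, so these p-values add nothing to the levels. *Cox4i1* was not lower there: it was at 1152, 1516 and 1409 against 994, 1156 and 889 (0.41 ± 0.17, adjusted p = 0.161).

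*Ndufs8* (1.25 ± 0.34, adjusted p = 0.0332) and *Cox6c* (0.66 ± 0.17, adjusted p = 0.0258) were also higher, and each lost its call under 6 of the alternatives. *Ndufa4* was lower, at 408, 199 and 190 TMM-scaled CPM against 860, 789 and 898 (-1.58 ± 0.26, adjusted p = 0.0027). Melanoma marker transcripts made up 0.0494 to 0.0709% of UMIs in these perivascular cells and 0.247 to 0.338% in the cells compared with them. Without the cells carrying melanoma transcripts, *Ndufa4* gave -0.71 (adjusted p = 0.118), and the call was also lost without *Atf4*wt/wt replicate 4 and at a mitochondrial limit of 5%. Of the other lists, 11 of 14 glycolysis genes were lower and 0 higher (median -1.21), with *Ldha* at -1.29 ± 0.16, and 5 of 12 mitochondrially encoded mRNAs were higher and 0 lower.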

How the data were processed

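Single-cell libraries of 8 large tumours were aligned and counted by the authors with Cell Ranger 3.1.0 on GRCm38, and the deposited tables hold raw UMI counts per gene and barcode; the study analysed them with Seurat 3.2.1. The sources differ on the version of the library kit. From these counts, barcodes were kept within the study's limits, with at most 7.5% mitochondrial counts, integrated and clustered with Seurat 5.3.0 in R 4.3.3 with the 85 members left out of the integration genes (resolution 0.7, 17 clusters). No doublet caller was run. Clusters were named from markers among their 10 leading genes. The cluster with the highest median mitochondrial share (7.03%) was left out, as were 2795 unnamed cells of low depth. It held 243 cells, which came almost wholly from 1 library.

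Counts were summed per tumour and class (at least 10 cells) and tested with edgeR 4.0.16 (TMM, filterByExpr, quasi-likelihood test, Benjamini-Hochberg over all genes, 0.05), with the tumour as a block within tumours, after a test on simulated data. Levels are counts per 1000000 UMIs (CPM) of the class sum, with library sizes scaled by TMM where so written. Fold changes are given as log2 with the SE of the fit. DESeq2 1.42.0 served as an alternative. Each tumour is 1 replicate. Intervals (95%) and floors (3 counts) cover counting error only.

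The members and the gene lists were chosen with earlier results of these data known. Genes were named where they passed the threshold (at most the 10 largest in each direction), as isoforms or core subunits, or with 0 UMIs in a class; members named for a small p or for missing the threshold were chosen after their values were seen. Replicate numbers occur in both genotypes, but the correlations of same-numbered tumours were -0.401 to -0.0614, so the numbers were not used as pairs. Libraries of different tumours differed by more than sampling noise (chi-square per degree of freedom at least 11.5). Alternatives were other size factors, every gene with 1 count, DESeq2, each tumour left out, a 5% mitochondrial limit, resolution 1.0, a replicate block, sex as a covariate, and host cells without melanoma transcripts. The values of 1 member are not reported here.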

Additional observations from a re-analysis of the deposited data

Results flagged for a closer look

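Among 66 groups of 4 tumours tested for a value far from the others, 6 held one, where chance gives about 1 in 20. In *Atf4*wt/wt replicate 2, the members took 3.94% of UMIs in melanoma-like cells against 3.84 to 3.86% in the other 3 tumours of the group, and complex I alone 1.16% against 1.12%. In the same tumour, complex V took 0.694% in immune-like cells (36 cells) against 0.795 to 0.815%, and *Cox4i2* lay at 158 CPM in CAF-like cells against 41.4 to 60.0. In *Atf4*D/D replicate 3, with 10 CAF-like cells, complex II took 0.0367% of their UMIs against 0.0470 to 0.0491%, and *Sdhb* lay at 98.0 CPM against 182 to 196.

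The host genotype difference of *Ndufa4l2* differed between CAF-like and melanoma-like cells by -1.08 on the log2 scale (edgeR adjusted p = 0.00427, from 0.00045095 to 0.0822 over its alternatives). Among 396 pairs of a member and a comparison checked, none had every tumour of one genotype moving one way and every tumour of the other the opposite way.

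Cells outside the comparisons also carried member transcripts. Cluster 12, an unnamed cluster of 811 cells with 0.142 to 0.459% mitochondrial transcripts, had a median member share of 4.68%, above the melanoma-like range of 3.79 to 4.04%. The 13016 barcodes over the mitochondrial limit had a median share of 4.07%, against 3.70 to 3.99% in the barcodes kept, and the share was higher in 8 of 8 libraries.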

How the results depend on the processing

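Most results kept their direction and their side of the threshold: among named genes 526 of the alternative values did, 21 lost and 2 gained a call and 1 turned, and with 1 tumour left out 809 did and 19 lost a call. The one that turned was *Cox6a2* in the hypoxia state, at 0.61 with resolution 1.0. In melanoma-like cells DESeq2 called 2 members higher in *Atf4*D/D hosts. With the replicate block, 0 members were called in each of the 3 genotype comparisons, as without it. With a mitochondrial limit of 5%, 13 members were higher in G2/M, 0 were higher and 0 lower in perivascular cells, and the melanoma-like share was 3.79%. In perivascular cells 1 member was higher with every detected gene and 1 with DESeq2, and 0 were lower without the cells carrying melanoma transcripts, which put the CAF-like share at 1.84%. The cause of these shifts was not tested. For G2/M and perivascular cells, the shares of all genes called in these settings are not given.

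With 1 tumour left out, the number of members higher in immune-like cells ranged from 1 to 3, with 1 without *Atf4*wt/wt replicate 3, and the number lower from 49 to 55. In CAF-like cells it ranged from 2 to 3 higher and from 68 to 72 lower, and in perivascular cells from 1 to 3 higher and from 0 to 1 lower, with 1 higher without *Atf4*D/D replicate 4, 2 without *Atf4*wt/wt replicate 2, and 0 lower without *Atf4*wt/wt replicate 4. Cell numbers and depth limit the host classes: CAF-like and immune-like sums rest on 10 to 240 and 35 to 220 cells per tumour. The mean UMIs per cell of a tumour had medians over tumours of 4634 and 2102. Over single cells the medians were 4581 and 1327.5 UMIs.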

Other observations

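The shares of the members differed among the CAF-like and immune-like subclusters. The *Pgf*-led CAF-like cells had the lowest share, 1.38 to 1.73% over 7 tumours, and the perivascular cells 2.14 to 2.86% over 6 tumours, while the CAF-like cells with melanoma markers had 2.97 to 3.43%. Among immune-like cells, the medians were 2.45% in TAM-like (tumour-associated macrophage) cells, 2.77% in T/NK-like cells and 2.99% in a subcluster with cell cycle genes, which also held the most melanoma marker transcripts (median 0.603%).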
